A study of Mus musculus with 62 samples.

Results

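Liver RNA was compared between mice that had received polychlorinated biphenyls (PCBs) at 1 mg/kg and mice that had received vehicle. The comparison holds 10 of the 62 libraries of the series, chosen by tissue and dose as labelled: 6 libraries at 1 mg/kg (animals 41, 42, 45, 46, 48 and 50) and 4 vehicle libraries (animals 3, 4, 7 and 8). All mice were female C57BL/6, an inbred laboratory strain, and the PCBs were given by mouth as the MARBLES mixture, the only agent named. The vehicle is not named in the labels, and neither are the animals' age, the length of treatment and the hour of collection. The other liver libraries, used for the estimate of spread and for neighbouring doses, numbered 4 (0.1 mg/kg) and 6 (6 mg/kg). The same mixture and doses were studied in the prefrontal cortex and the striatum. The question of the comparison is which liver transcripts differ at this middle dose.

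PCBs are chlorinated pairs of phenyl rings that persist in fat and in the liver. Flat, dioxin-like PCBs bind the aryl hydrocarbon receptor (AHR), whose classical targets are Cyp1a1 and Cyp1a2. Many of the others act on the nuclear receptors CAR, whose best known mouse target is Cyp2b10, and PXR, which drives Cyp3a11. Downstream of these oxidising enzymes, conjugating enzymes such as the sulfotransferases attach groups that let steroids, bile acids and foreign compounds leave the cell.

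Total counts lay between 8298459 and 10203247 at 1 mg/kg and between 8946858 and 10176048 in vehicle, and 12968 genes had enough counts to be tested. Hepatocyte markers were abundant in every library: the 8 markers summed to between 98614 and 175326 CPM (counts relative to library size, scaled by TMM) at 1 mg/kg and to between 103125 and 118240 CPM in vehicle. Genes abundant in brain and nearly silent in liver, 734 in number, made up 0.0111% to 0.139% of the counts at 1 mg/kg and 0.0133% to 0.0995% in vehicle. That share was highest in animals 45 and 50 at 1 mg/kg and in vehicle animal 7. A clock index, the log2 level of Dbp minus that of Arntl, clock genes that peak at opposite times of day, was 5.76 to 8.60 at 1 mg/kg and 2.04, 2.49, 5.19 and 5.45 in vehicle. The vehicle livers thus all lay below the dosed ones, with animals 3 and 4 lowest (exact permutation test, two-sided, p = 0.00952, the smallest that 6 against 4 libraries can give, and 0.054 after Benjamini-Hochberg adjustment over 17 library measures). At 0.1 mg/kg the index was 6.17 to 7.98, and it was 6.58 to 8.48 at 6 mg/kg. The GC slope, the Spearman correlation over genes of GC content with how far a library lies from the average one, ran from -0.258 to 0.318 at 1 mg/kg and from -0.282 to -0.162 in vehicle (exact permutation test p = 0.0381, adjusted 0.135). Dose therefore travels with the clock index, and in part with the GC slope, in these 10 livers, so their parts in the gene differences cannot be told apart from that of the dose.

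**Figure D1:**
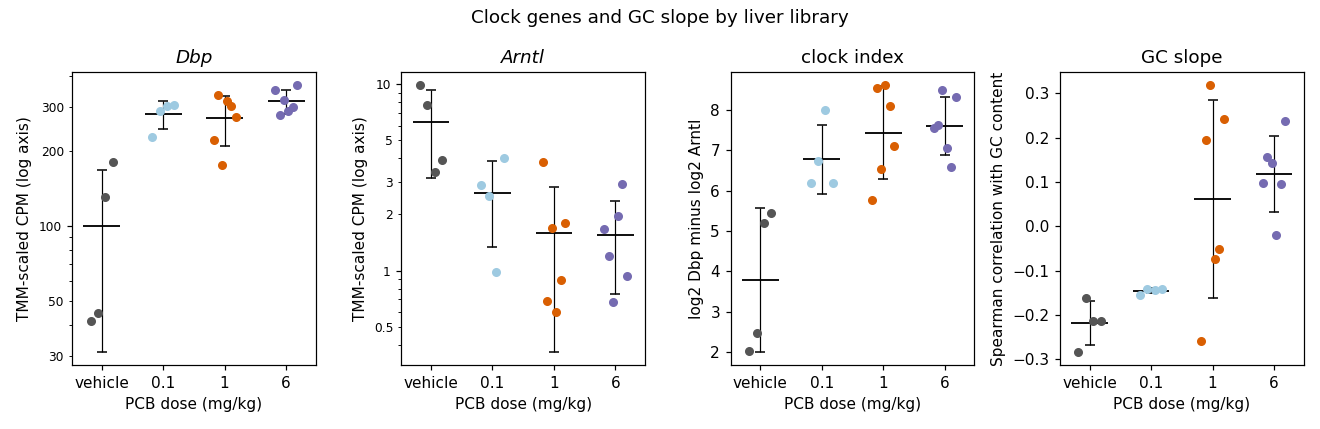
Dbp and Arntl (TMM-scaled CPM, log axis), the clock index (log2 scale) and the GC slope (Spearman correlation) in each liver library by PCB dose in mg/kg; points are libraries, lines are means and bars are SD. The 4 vehicle libraries lie lowest in the clock index, at 2.04 to 5.45, and the 1 mg/kg libraries spread most in the GC slope, from -0.258 to 0.318.

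No gene passed an adjusted p of 0.05 at 1 mg/kg against vehicle in the edgeR quasi-likelihood test (0.0% of 12968). At an unadjusted p under 0.05, 1095 genes (8.44%) differed, 666 of them higher (5.14%) and 429 lower (3.31%). In 206 genes (1.59%) the 6 dosed and 4 vehicle libraries did not overlap, 110 higher (0.848%) and 96 lower (0.74%). The Wald test of DESeq2 on the same counts called 21 genes (0.162%), 12 higher and 9 lower. Of all genes, 182 (1.4%) were under the unadjusted threshold with the clock index as a covariate, 393 (3.03%) with the GC slope, 358 (2.65%) without vehicle animals 3 and 4, 514 (3.94%) without animals 7, 45 and 50, and 1193 (9.2%) with 1 surrogate variable. Counts of list members in those fits are to be read against these shares, and a lower count there says nothing particular of a list. All values below are therefore differences that did not pass the adjusted threshold of edgeR's test unless stated, and fold changes are given with their standard error (SE). In simulated counts of this design, 61% of genes changed by 1 on the log2 scale and 92% of those changed by 1.5 were recovered. The changed genes there left out the most weakly expressed ones, and no clock or GC difference between the groups was simulated. These shares therefore need not hold in these livers and do not show how many genes differ.

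The smallest p in either direction belonged to Trib1 and Dnajb9. Trib1 (chr15:59648654-59657099) encodes a pseudokinase that steers transcription factors to degradation and is linked to hepatic lipid output. Its level was 19.5, 16.6, 20.2 and 19.4 CPM in the 4 vehicle livers and lowest 26.99, median 33.7 and highest 41.4 CPM at 1 mg/kg. The groups did not overlap, and the means were 18.9 ± 1.56 (SD, n = 4) and 32.9 ± 5.43 CPM (SD, n = 6). The log2 fold change was 0.80 (SE 0.14, edgeR adjusted p = 0.0881), 1.74-fold. Dnajb9 (chr12:44205897-44210068) encodes a co-chaperone of the endoplasmic reticulum (ER) that holds the stress sensor IRE1 in check. It was at 84.1, 73.1, 60.8 and 49.7 CPM in vehicle and at 19.9 to 39.7 CPM, median 24.5, at 1 mg/kg, again with no overlap. Its log2 fold change was -1.30 (SE 0.23, edgeR adjusted p = 0.0881), 2.46-fold lower. Both genes passed in DESeq2 and in the edgeR fit with 1 surrogate variable, with adjusted p of 0.00042 and 0.0279 for Trib1 and 0.000858 and 0.0183 for Dnajb9. Mcm10, a DNA replication factor, likewise passed in those fits, and stood at 28.5 to 47.6 CPM at 1 mg/kg against 13.6 to 22.3 CPM in vehicle. In the fit of the 2 groups alone Trib1, Dnajb9 and Mcm10 did not pass (edgeR adjusted p = 0.206, 0.0536 and 0.289). With the clock index as a covariate their values were 0.63, -0.92 and 0.67. With the GC slope they were 0.77, -0.92 and 0.76, and none passed in either fit.

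**Figure D2:**
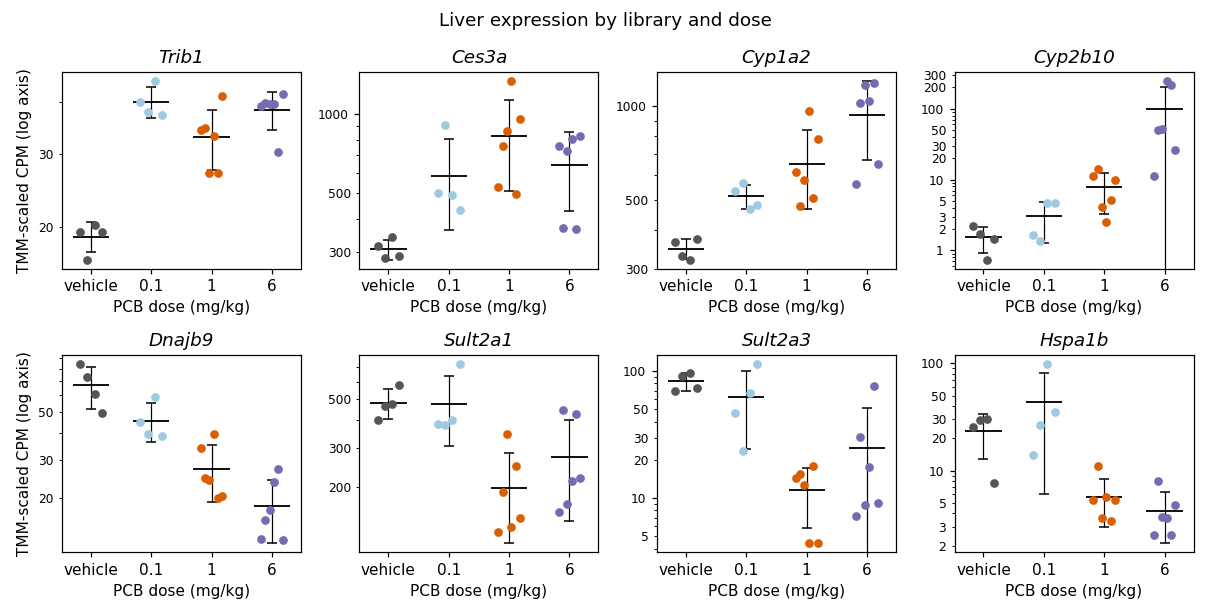
TMM-scaled CPM (log axis) of 8 liver genes by PCB dose in mg/kg; points are libraries, lines are group means and bars are SD, cut at the axis where the mean minus the SD falls below it. Trib1, Ces3a, Cyp1a2 and Cyp2b10 lie higher at 1 mg/kg than in vehicle, and Dnajb9, Sult2a1 and Sult2a3 lie lower, each without overlap; Hspa1b is lower with 1 vehicle library, at 7.74 CPM, among the dosed ones.

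Among the direct targets of the PCB-sensing receptors, a few genes stood apart and most did not. Of the 8 AHR targets tested, 5 were above 0 in log2 fold change and 1, Cyp1a2, had an unadjusted p under 0.05, where 8.44% of all genes did. Cyp1a2, the liver's constitutive AHR-driven oxidase (chr9:57676937-57683655), was at 365, 329, 320 and 374 CPM in vehicle and at 477 to 965 CPM, median 597, at 1 mg/kg. The groups did not overlap, and the log2 fold change was 0.91 (SE 0.23, edgeR adjusted p = 0.306). It passed in DESeq2 (adjusted p = 0.0185). Cyp1a1, the AHR's most inducible target in many tissues, was at 0.357 to 1.05 CPM in vehicle and at 0.595 to 2.16 CPM at 1 mg/kg, overlapping (log2 fold change 0.88, SE 0.70, edgeR unadjusted p = 0.223).

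Of the 25 CAR and PXR targets tested, 14 were above 0 and 11 below, with 3 higher and 3 lower at an unadjusted p under 0.05 (5.14% and 3.31% of all genes), and their median log2 fold change was 0.08 against 0.02 over all genes (-0.07 without vehicle animals 3 and 4). Cyp2b10 (chr7:25897658-25926624) was at 2.23, 1.72, 0.739 and 1.43 CPM in vehicle and at 2.52 to 14.3 CPM, median 7.45, at 1 mg/kg. Every dosed library was above every vehicle library, yet the dosed ones spread widely; the log2 fold change was 2.34 (SE 0.84, edgeR adjusted p = 0.542), and 3.01 with an adjusted p of 0.0183 in the fit with 1 surrogate variable. Cyp2c54, a Cyp2c oxidase, rested partly on animal 46: it was at 12.5 to 29.2 CPM in vehicle and at 64.9 to 402 CPM, median 135, at 1 mg/kg (log2 fold change 2.95, SE 0.67, edgeR adjusted p = 0.247). Cyp2c50 was higher by 0.64 (SE 0.24). Other Cyp2c genes went the other way: Cyp2c38 was at 157 to 217 CPM in vehicle and 93.0 to 133 CPM at 1 mg/kg, and Cyp2c39 at 9.98 to 14.6 and 2.91 to 9.53 CPM, neither overlapping; they were at -0.39 and -0.57 on the log2 scale with the GC slope as a covariate. Cyp3a16, a Cyp3a oxidase, was lower by 1.53 on the log2 scale but its groups overlapped. A fit with the clock index gave 1.73 for Cyp2c54 and -0.56 for Cyp3a16. The Cyp2c and Cyp3a genes are close relatives, and how reads common to them were counted is not given in the sources used here, so the split between members is uncertain. Cyp3a11 was at 1241, 1209, 1111 and 1246 CPM in vehicle and at 908 to 1422 CPM at 1 mg/kg; its log2 fold change was 0.09 with a 95% interval from -0.30 to 0.48. Of the 10 receptors and partners tested, Nr1i2, the gene for PXR, had the smallest unadjusted p (0.0808 in edgeR) and none was under 0.05.

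Carboxylesterases cleave ester bonds in lipids and drugs. Their list, which also holds the epoxide hydrolase Ephx1, had 2 of 12 tested members with an unadjusted p under 0.05, both higher, against 5.14% of all genes. Ces3a (chr8:105048576-105061928), a lipid droplet hydrolase, was at 315, 283, 341 and 288 CPM in vehicle and at 497 to 1343 CPM, median 813, at 1 mg/kg. The groups did not overlap, and the means of 307 ± 26.8 (SD, n = 4) and 826 ± 313 CPM (SD, n = 6) differed by 1.43 on the log2 scale (SE 0.30, edgeR adjusted p = 0.171; 0.00327 in DESeq2). Ces2a overlapped, at 145 to 249 CPM in vehicle and 242 to 331 CPM at 1 mg/kg (log2 fold change 0.54, SE 0.17). In the fit without vehicle animals 3 and 4 the value of Ces2a was 0.24 and that of Ces3a 1.38. Mafg, a partner of the oxidative stress factor NRF2, was at 36.3 to 59.0 CPM in vehicle and 59.4 to 86.1 CPM at 1 mg/kg (log2 fold change 0.57, SE 0.15), and G6pdx, which supplies NADPH, was lower by 1.17 (SE 0.56). They were the 2 of 14 NRF2 targets with an unadjusted p under 0.05, in opposite directions, where 8.44% of all genes were under it. Without vehicle animals 3 and 4 the value of Mafg was 0.38 (edgeR unadjusted p = 0.056); with the clock index as a covariate it was 0.29, and that of G6pdx -0.17.

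In the sulfotransferase cluster on chromosome 7, 4 of the 6 Sult2a genes tested were lower without overlap, as were 0.74% of all genes; the cluster was taken up for these values, so the count is a description. Sult2a enzymes sulfonate bile acids and hydroxysteroids, and several are expressed mainly in female mouse liver. Sult2a3 (chr7:14067555-14123048) was at 70.3, 92.1, 96.9 and 73.3 CPM in vehicle and at 4.43 to 17.8 CPM, median 13.5, at 1 mg/kg. The dosed libraries lay far below the vehicle ones, and the log2 fold change was -2.84 (SE 0.58, edgeR adjusted p = 0.171), 7.18-fold lower; it passed in the fit of the 2 groups alone (0.0174) and in DESeq2 (0.00607). Sult2a1 (chr7:13796246-13837410) was at 403, 464, 474 and 581 CPM in vehicle and at 124 to 346 CPM, median 166 (log2 fold change -1.29, SE 0.32, edgeR adjusted p = 0.309). Sult2a2 (chr7:13733506-13779637) was at 524, 542, 569 and 680.5 CPM in vehicle and at 183 to 315 CPM, median 247 (log2 fold change -1.22, SE 0.30, edgeR adjusted p = 0.309). Their neighbour Sult2a5 (chr7:13623967-13670807), named after its values were seen, was at 45.2 to 58.1 CPM in vehicle and 14.8 to 32.7 CPM at 1 mg/kg (log2 fold change -1.37, SE 0.37). Not every member was lower in the main test: Sult2a8 (chr7:14410686-14446780) was at 118, 138, 192 and 192 CPM in vehicle and at 176 to 478 CPM, median 258 (log2 fold change 0.80, SE 0.29), and Sult2a7 differed by 0.22 (SE 0.60; -0.11 without vehicle animal 3). The value of Sult2a8 was 0.53 without vehicle animals 3 and 4 (edgeR unadjusted p = 0.177) and 0.21 with the clock index as a covariate (0.645). These are closely related genes, so reads may have been divided among them and each member's value is uncertain. The low values of Sult2a1, Sult2a2, Sult2a3 and Sult2a5 were -1.43, -1.34, -2.88 and -1.35 without vehicle animals 3 and 4, and -1.48, -1.26, -2.59 and -1.56 without animals 7, 45 and 50. With the clock index as a covariate they were smaller, at -1.07, -1.05, -2.08 and -0.92, and none passed.

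Promoters are shown for the low Sult2a3 and Sult2a5 (RefSeq, assembly GRCm38.p6), the 2 of the 4 low genes matched in the promoter table, so the pair says nothing of Sult2a1 and Sult2a2. Capitals mark the best match to an inverted repeat without a spacer (IR0), the half-sites GGGTCA and TGAACT joined, of the kind that nuclear receptors bind; it was searched after the values were seen. Each line gives the 250 bases upstream of the start site, 5′ to 3′ on the gene's strand: chr7:14123049-14123298, minus strand, and chr7:13623717-13623966, plus strand.
Sult2a3: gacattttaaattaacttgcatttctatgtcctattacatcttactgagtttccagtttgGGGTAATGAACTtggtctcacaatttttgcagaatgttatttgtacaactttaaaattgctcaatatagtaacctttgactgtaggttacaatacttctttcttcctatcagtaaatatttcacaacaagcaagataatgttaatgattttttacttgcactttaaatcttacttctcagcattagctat
Sult2a5: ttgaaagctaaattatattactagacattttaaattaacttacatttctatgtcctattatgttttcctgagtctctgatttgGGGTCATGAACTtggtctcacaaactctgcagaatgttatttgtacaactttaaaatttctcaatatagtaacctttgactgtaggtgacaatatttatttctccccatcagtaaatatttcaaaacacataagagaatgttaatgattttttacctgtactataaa
The Sult2a5 stretch holds all 12 letters, starting at position -167, and that of Sult2a3 holds 11, starting at -190, with the substitution C5A (repeat first, counted from 1 at its 5′ end). The full letters, searched on both strands, occurred in 2 of 32851 RefSeq promoters (0.00609%). That share is for all 12 letters and does not apply to Sult2a3, because matches of 11 or fewer letters were not counted over the promoters. The Sult2a3 and Sult2a5 stretches were 73.3% identical over an alignment. For Sult2a8, which was not low, the window of the RefSeq entry used overlaps the annotated gene in part; its best match had 8 of the 12 letters, and it was 55.1% and 53.02% identical to those of Sult2a3 and Sult2a5. A match is a description of the letters and shows no binding.

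Genes of cholesterol synthesis and uptake lay lower nearly throughout the list. Of 18 tested, 17 were below 0 in log2 fold change, 6 had an unadjusted p under 0.05, all lower (3.31% of all genes), and 3 did not overlap between the groups, also lower (0.74%); the median was -0.50 against 0.02 over all genes. Idi1, which isomerises the 5-carbon building block of sterols, was at 214, 250, 318 and 281 CPM in vehicle and at 69.5 to 173 CPM, median 125, at 1 mg/kg (log2 fold change -1.10, SE 0.38). Nsdhl, a late enzyme that removes methyl groups from the sterol ring, was at 95.4 to 138 CPM in vehicle and at 45.6 to 90.8 CPM (log2 fold change -0.77, SE 0.20, edgeR unadjusted p = 0.000987). Fdps, which joins the 5-carbon units, was at 4.26 to 6.43 CPM in vehicle and 1.30 to 3.57 CPM at 1 mg/kg. In those 3 genes no dosed library reached the lowest vehicle library. Sqle and Cyp51, enzymes of the later sterol steps, were lower by 0.92 and 0.87 on the log2 scale, with some overlap. With the clock index as a covariate Idi1 was at -0.57 and Cyp51 at -0.40, and with the GC slope Sqle was at -0.48. Srebf2, the transcription factor of the pathway, was the member above 0, at 0.02. The list had 17 of 18 below 0 without vehicle animals 3 and 4 (median -0.72) and 18 of 18 without animals 7, 45 and 50. With the clock index as a covariate it was 14 of 18, the median -0.22 and no member was under the threshold (1.4% of all genes), and with the GC slope 15 of 18, the median -0.44 and 1 member was (3.03%).

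Fatty acid and bile acid genes showed the same side of 0 with little beyond the spread. Of 16 fatty acid synthesis genes, 14 were below 0 with a median of -0.26, and the one member with an unadjusted p under 0.05 (8.44% of all genes) was Srebf1, the factor that drives the pathway, which was higher by 1.05 (SE 0.39) at 261 to 1361 CPM against 250 to 458 CPM in vehicle. Without animals 7, 45 and 50 the fatty acid list had 10 of 16 above 0, and with the GC slope as a covariate 9 of 16. Of 11 bile acid synthesis genes, 9 were below 0, or 6 with the GC slope and 5 with the clock index as a covariate. Baat, which conjugates bile acids to taurine, had non-overlapping groups at 199 to 220 CPM in vehicle and 135 to 189 CPM at 1 mg/kg (log2 fold change -0.36; -0.17 with the GC slope as a covariate). Cyp7a1, the rate-limiting enzyme of bile acid synthesis, had a log2 fold change of -0.50 that did not reach an unadjusted p of 0.05.

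**Figure D3:**
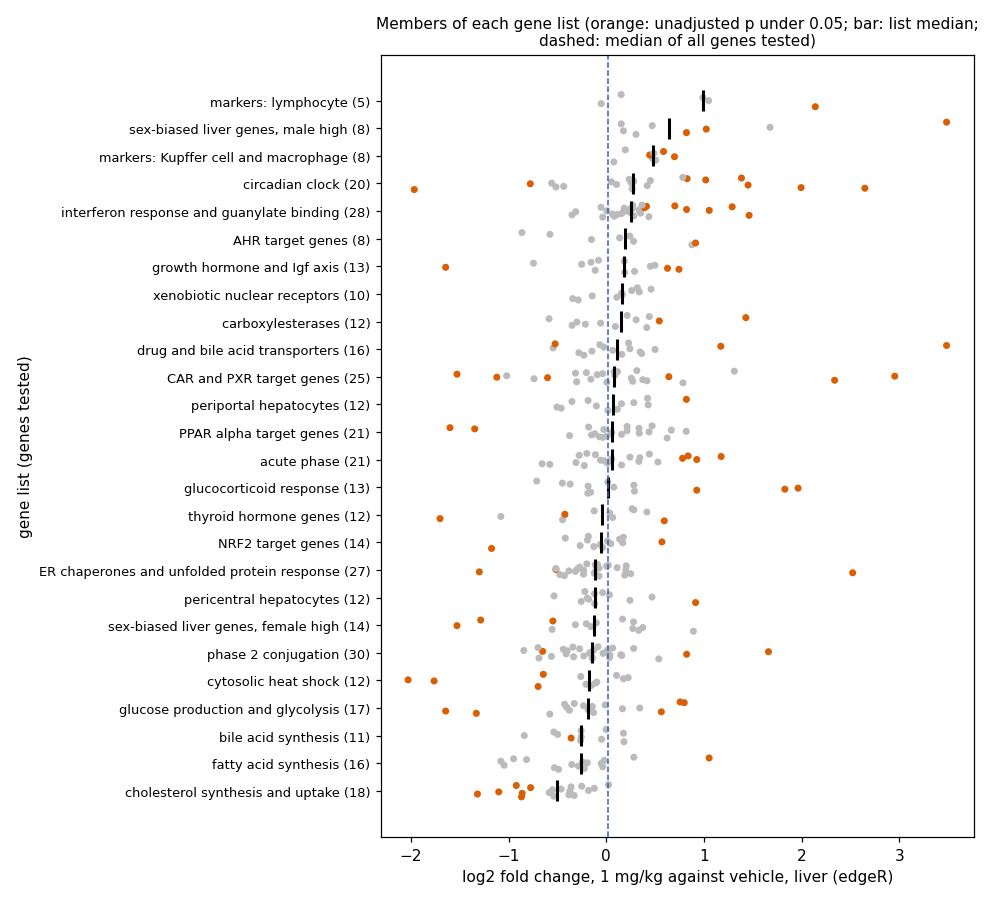
Log2 fold change of each tested member of the gene lists at 1 mg/kg against vehicle (edgeR); orange points have an unadjusted p under 0.05, bars are list medians and the dashed line is the median of all 12968 genes, 0.02. The cholesterol list has a median of -0.50 with 17 of 18 members below 0, and the male-high list a median of 0.65 with all 8 above 0.

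Glucose genes were mixed. Of 17 tested, 3 were higher and 2 lower at an unadjusted p under 0.05, against 5.14% and 3.31% of all genes. Besides Trib1, Gys2, the liver glycogen synthase, was higher by 0.56 (SE 0.20; 0.15 with the clock index as a covariate) and Trib3, a relative of Trib1, by 0.76 (SE 0.35; 0.50 without animal 48). G6pc, which releases free glucose, was at 376, 431, 208 and 172 CPM in vehicle and at 56.3 to 246 CPM, median 103, at 1 mg/kg (log2 fold change -1.33, SE 0.50). Igfbp1, an insulin-repressed binding protein, was at 63.8, 190, 95.5 and 49.6 CPM in vehicle and at 3.73 to 55.3 CPM (log2 fold change -1.65, SE 0.75; 0.14 with the clock index as a covariate). Pdk4 (chr6:5483351-5496278), the kinase that shuts pyruvate dehydrogenase in fasting, was at 11.04, 28.9, 11.3 and 13.1 CPM in vehicle and at 4.03 to 6.23 CPM at 1 mg/kg, with no overlap (log2 fold change -1.60, SE 0.34, edgeR adjusted p = 0.171). Pdk4 and Fgf21, a fasting hormone that was lower by 1.35 (SE 0.53), were the 2 of 21 PPAR alpha targets under the unadjusted threshold, a share close to the 8.44% of all genes. Without vehicle animals 3 and 4, the value of G6pc was -0.70, that of Pdk4 -1.21 and that of Fgf21 -0.26. The clock index as a covariate gave -0.69 for Pdk4 and -0.04 for Fgf21.

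Among sex-biased liver genes, all 8 tested male-high genes were above 0, with a median of 0.65, and 3 had an unadjusted p under 0.05, all higher, against 5.14% of all genes. Slco1a1, an organic anion carrier of male liver, was at 1.26, 0.287, 1.37 and 1.07 CPM in vehicle and at 1.30 to 27.5 CPM, median 7.84, at 1 mg/kg (log2 fold change 3.48, SE 1.08, edgeR adjusted p = 0.508). Cyp2d9, a male-high steroid hydroxylase, was at 35.1 to 49.4 CPM in vehicle and 43.4 to 99.8 CPM at 1 mg/kg, and Elovl3, a fatty acid elongase, was higher by 1.02 (SE 0.48; 0.28 with the GC slope as a covariate). Of 14 female-high genes, 6 were above 0 and 8 below, and 3 were lower at that threshold (3.31% of all genes): Sult2a1, Cyp3a16 and Hao2, a hydroxyacid oxidase at 43.0 to 67.5 CPM in vehicle and 29.6 to 50.6 CPM at 1 mg/kg. Each tested male-high gene overlapped between the groups, and without vehicle animals 3 and 4 the male-high list had 6 of 8 above 0. Igf1, made by the liver under growth hormone, was at 300 to 604 CPM in vehicle and 381 to 903 CPM at 1 mg/kg (log2 fold change 0.74, SE 0.35; -0.04 with the clock index as a covariate). Igfals, which carries it in blood, was higher by 0.63 (SE 0.24), or 0.27 with the GC slope. Of 13 growth hormone and Igf genes tested, 7 were above and 6 below 0. At an unadjusted p under 0.05, 2 were higher and 1, Igfbp1, was lower (5.14% and 3.31% of all genes).

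Clock genes differed in both directions. Of 20 tested, 15 were above 0, 6 were higher and 2 lower at an unadjusted p under 0.05 (5.14% and 3.31% of all genes), and the median was 0.27. Dbp, an output factor, was at 41.5, 44.6, 131 and 181 CPM in vehicle and at 175 to 336 CPM, median 289, at 1 mg/kg (log2 fold change 1.45, SE 0.32, edgeR adjusted p = 0.176; 0.00391 in DESeq2). Arntl, which encodes BMAL1, was at 9.88, 7.75, 3.38 and 3.93 CPM in vehicle and at 0.601 to 3.85 CPM, median 1.29 (log2 fold change -1.97, SE 0.48). Vehicle animals 3 and 4 lay farthest from the dosed livers in both genes, and 1 dosed library touched the vehicle range in each. Usp2, a clock-driven deubiquitinase, was at 3.87 to 7.65 CPM in vehicle and 8.82 to 26.8 CPM at 1 mg/kg, without overlap (log2 fold change 1.38, SE 0.36). Bhlhe41, a repressor, was at 0 to 0.845 CPM in vehicle and 0.962 to 3.12 CPM at 1 mg/kg, also without overlap (log2 fold change 2.65, SE 0.69, edgeR adjusted p = 0.362, DESeq2 adjusted p = 0.0467). Its value was 1.33 with the clock index as a covariate, 1.76 without vehicle animals 3 and 4, and 4.43 without animals 7, 45 and 50. Tef, Ciart and Per3 were higher by 0.83, 1.995 and 1.02 and Nfil3, the repressor opposed to Dbp, was lower by 0.78. Per1 and Nr1d1, core components, had log2 fold changes of 0.28 (SE 0.33) and 0.25 (SE 0.20), which were 0.12 without animal 50 and 0.12 without vehicle animal 3. Without vehicle animals 3 and 4, 3 clock genes were higher and none lower at the unadjusted threshold, with 0.80 for Dbp and -1.20 for Arntl. None of the 20 was under it with the clock index as a covariate (1.4% of all genes), which is made of Dbp and Arntl, themselves on the list.

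Many genes of the clock's negative limb carry an E-box, CACGTG, the sequence that BMAL1 and CLOCK bind. Stretches of 60 bases are shown from Bhlhe41, without overlap above, and Per1, which overlapped, with the E-box in capitals, 5′ to 3′ on the gene's strand (RefSeq, GRCm38.p6): chr6:145865541-145865600, minus strand, and chr11:69098756-69098815, plus strand.
Bhlhe41: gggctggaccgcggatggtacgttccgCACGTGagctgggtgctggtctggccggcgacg
Per1: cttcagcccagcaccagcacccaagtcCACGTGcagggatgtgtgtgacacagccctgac
The letters start at positions -153 and -166 from the start site of the RefSeq entry shown, which for Per1 is one of several and lies inside the annotated gene. On both strands searched, they occurred in 5 of the 16 clock-list genes with a promoter entry (31.2%: Bhlhe41, Ciart, Cry1, Per1 and Tef). Over all RefSeq promoters they occurred in 1978 of 32851 (6.02%). A list gene was counted when any of its promoter entries matched, whereas the second share counts single entries, so the shares are in unlike units. The list was chosen for genes known to be clock-controlled. Per1 holds the same letters as Bhlhe41, and its log2 fold change was smaller than its SE.

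Interferon-response genes lay mostly above 0. Of 28 tested, 24 were above 0, 7 had an unadjusted p under 0.05, all higher (5.14% of all genes), and 2, Gbp11 and Ifit3, were higher without overlap (0.848%); the median was 0.26. Gbp11 (chr5:105323026-105346476), a guanylate-binding protein gene, was at 2.13, 2.39, 2.53 and 2.14 CPM in vehicle and at 5.16 to 8.17 CPM, median 6.07, at 1 mg/kg (log2 fold change 1.46, SE 0.38, edgeR adjusted p = 0.376). Ifit3 was at 10.5 to 13.1 CPM in vehicle and 13.3 to 33.6 CPM at 1 mg/kg (log2 fold change 0.82, SE 0.24). Isg15, a ubiquitin-like modifier, was higher by 1.29 (SE 0.38) and reached 64.1 CPM in 1 dosed library, and Ifit1 and Psmb9 were higher by 1.05 and 0.70. Without vehicle animals 3 and 4 the list had 19 of 28 above 0 and 3 members under the threshold (2.65% of all genes), and with the clock index as a covariate 11 of 28 above 0 and 1 member under it (1.4%), with Isg15 at 0.30, Ifit1 at 0.30 and Psmb9 at -0.065.

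Markers of immune cells were set beside these genes, and none passed the adjusted threshold. All 8 macrophage markers were above 0 with a median of 0.48; Clec4f, Csf1r and Timd4 had an unadjusted p under 0.05, all higher (5.14% of all genes), and the 8 summed to 187 to 362 CPM at 1 mg/kg and 129 to 212 CPM in vehicle (exact permutation test p = 0.0762, adjusted 0.162). With the GC slope as a covariate 4 of the 8 were above 0, with a median of 0.05. Of the 10 lymphocyte markers, 5 had enough counts to be tested and 4 of those were above 0, 1 of them with an unadjusted p under 0.05, as were both tested neutrophil markers, neither under it. Cd79a, a part of the B cell receptor, was at 0.669 to 1.45 CPM in vehicle and 1.69 to 3.60 CPM at 1 mg/kg. The lymphocyte markers summed to 8.51 to 22.97 CPM at 1 mg/kg and 5.64 to 6.87 CPM in vehicle, and the neutrophil markers to 2.88 to 4.15 and 1.55 to 2.74 CPM (exact permutation test p = 0.00952 for each, the smallest possible, and 0.054 adjusted). Without animal 50 the difference in the lymphocyte sum was 3.66 CPM, against 5.84 with it. In bulk tissue, more cells of a type and more RNA per cell cannot be told apart, and the part of these cells in the interferon genes was not tested. Of 8 endothelial markers, 4 were above and 4 below 0 with a median of 0.02, and 1, Lyve1, was under the unadjusted threshold, lower by 1.15 (SE 0.38), where 3.31% of all genes were. Of the 2 pancreas markers tested, 1 was above 0 and 1 below, and Cela1 was higher by 0.58 (SE 0.25). The red-cell markers spread from 45.5 to 2638 CPM at 1 mg/kg and 47.8 to 3065 CPM in vehicle.

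Of 21 acute-phase genes, 12 were above and 9 below 0. Saa4 (chr7:46727992-46732603), a constitutive serum amyloid, was at 106, 84.6, 100.2 and 100.1 CPM in vehicle and at 111 to 248 CPM, median 177, at 1 mg/kg, without overlap (log2 fold change 0.84, SE 0.18, edgeR adjusted p = 0.171; 0.00391 in DESeq2). Saa3, Lcn2 and Orm2 were higher by 1.18, 0.93 and 0.78, making 4 of the 21 under the unadjusted threshold, all higher (5.14% of all genes), with a list median of 0.06. With 1 surrogate variable, the clock index or the GC slope in the fit, Saa4 was the 1 member under it; with the clock index Saa3 and Orm2 were at 0.41 and 0.28, and with the GC slope Lcn2 was at 0.48. Of 13 glucocorticoid response genes, 7 were above and 6 below 0, with a median of 0.02, and 3 were under the unadjusted threshold, all higher (5.14% of all genes), Lcn2 among them. With the GC slope as a covariate the median was -0.48, with 1 member higher and 1 lower at that threshold, and these 3 were not under it. The metallothioneins Mt1 and Mt2, which bind zinc and cadmium and respond to glucocorticoids, were the other two, higher by 1.83 (SE 0.51) and 1.96 (SE 0.73). Mt1 did not overlap, at 50.4 to 104 CPM in vehicle and 106 to 478 CPM at 1 mg/kg.

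Chaperone genes were lower in a few members. Of 12 cytosolic heat shock genes, 4 were lower and none higher at an unadjusted p under 0.05, with a median of -0.18; 3.31% of all genes were lower at that threshold. Hspa1b (chr17:34956429-34959238), a stress-inducible HSP70, was at 25.7, 29.5, 30.2 and 7.74 CPM in vehicle and at 3.37 to 10.9 CPM, median 5.30, at 1 mg/kg (log2 fold change -2.03, SE 0.47, edgeR adjusted p = 0.247; 0.0124 in DESeq2). Vehicle animal 8 lay within the dosed range. Hspa1a, its near-identical neighbour with which reads may be shared, was lower by 1.76, and the co-chaperones Bag3 and Hsph1 by 0.70 and 0.64. Without animals 3 and 4, and likewise without animals 7, 45 and 50, 1 of the 12 was under the threshold (2.65% and 3.94% of all genes). Of 27 ER chaperone and unfolded-protein genes, 19 were below 0, or 11 with the clock index as a covariate, and 3 had an unadjusted p under 0.05, against 8.44% of all genes. Dnajb9 and Hspa13 were lower and Derl3, a part of the ER degradation machinery, was higher: Derl3 was at 0.238 to 0.872 CPM in vehicle and 0.695 to 7.94 CPM at 1 mg/kg (log2 fold change 2.52, SE 0.64; DESeq2 adjusted p = 0.0367). With the clock index Hspa13 was at -0.13 and Derl3 at 1.32. The main ER chaperone Hspa5 had a log2 fold change of -0.30.

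Transporters and conjugating enzymes outside the Sult2a cluster gave single genes. Slc22a27 (chr19:7864388-7966517), an organic anion transporter, was at 92.7, 71.0, 72.6 and 87.7 CPM in vehicle and at 42.2 to 66.7 CPM at 1 mg/kg, without overlap (log2 fold change -0.69, SE 0.14, edgeR adjusted p = 0.171; 0.00471 in DESeq2). Slc22a7 was higher by 1.17 (0.73 without vehicle animals 3 and 4) and Slco1b2, a bile acid and drug uptake carrier, lower by 0.52 (-0.0027 with the GC slope as a covariate). Of 30 phase 2 genes, 20 were below 0 with a median of -0.14, or 9 with a median of 0.13 with the GC slope as a covariate, and 3 had an unadjusted p under 0.05 (8.44% of all genes); Gstt2 and Sult5a1 were higher by 0.82 and 1.66, and Ugdh, which makes the glucuronic acid donor, was lower by 0.65; with the GC slope Ugdh was at -0.15, and with the clock index Gstt2 was at -0.024. Of 12 thyroid hormone genes, Dio1, the liver deiodinase, was higher by 0.59 (SE 0.20), and Slc16a10, a carrier, and Hr, a co-repressor at 0 to 16 counts a library, were lower by 0.42 and 1.70. These were the 3 of the 12 with an unadjusted p under 0.05, against 8.44% of all genes; with the clock index as a covariate Dio1 was at 0.08 and Slc16a10 at -0.10, and without vehicle animals 3 and 4 at 0.31 and -0.37. Of 12 periportal genes, 7 were above and 5 below 0, and 1, Sds, was under the unadjusted threshold (8.44% of all genes), higher by 0.82 but at 0.10 with the GC slope as a covariate. Of 8 hepatocyte markers, 5 were above and 3 below 0, and 1, Apoa1, was under it (again 8.44%), higher by 0.81 but at -0.07 with the GC slope as a covariate. The remaining genes of smallest p without overlap were Pglyrp1, a peptidoglycan-binding protein at 0 to 0.211 CPM in vehicle and 0.240 to 1.38 CPM at 1 mg/kg, Ngef and C030006K11Rik, higher by 0.76 and 0.71, and Desi2, Lgalsl, P4ha1 and Hinfp, lower by 0.99, 0.96, 0.88 and 0.80. With the clock index as a covariate Ngef was at 0.22, Desi2 at -0.29 and Lgalsl at -0.51, and with the GC slope C030006K11Rik was at 0.36 and Lgalsl at -0.56.

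Against the neighbouring doses, which do not involve the vehicle livers, 2 genes were lower at 1 than at 0.1 mg/kg with an adjusted p under 0.05 (0.0154% of 12968; 846 genes, 6.52%, at an unadjusted p under 0.05). P4ha1 (chr10:59323197-59373304), a subunit of the enzyme that hydroxylates collagen prolines, was at 15.3, 18.8, 26.99 and 23.6 CPM at 0.1 mg/kg and at 7.24 to 9.43 CPM at 1 mg/kg (log2 fold change -1.30, SE 0.20, edgeR adjusted p = 0.0244). Hspa1b was at 13.9, 26.7, 98.7 and 35.5 CPM at 0.1 mg/kg and, as above, at most 10.9 CPM at 1 mg/kg (log2 fold change -2.94, SE 0.47, edgeR adjusted p = 0.0244). Every value at 0.1 mg/kg was above every value at 1 mg/kg in both genes, and vehicle lay with 0.1 mg/kg for P4ha1, at 13.1 to 21.3 CPM. Hspa1b also missed the threshold without animal 46 at 1 mg/kg (edgeR adjusted p = 0.0517). Neither gene passed without animal 28 or 29 at 0.1 mg/kg or animal 45, 48 or 50 at 1 mg/kg, and with animal 28 left out the values were -1.16 and -2.15. Sult2a1, Sult2a2, Sult2a3 and Sult2a5 differed between 1 and 0.1 mg/kg by -1.26, -1.21, -2.43 and -1.46 (edgeR adjusted p = 0.372, 0.37, 0.364 and 0.386). They passed narrowly in DESeq2 on that contrast (adjusted p = 0.0494, 0.0494, 0.0453 and 0.0494), which called 22 genes. With 1 surrogate variable they did not pass.

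Between 6 and 1 mg/kg no gene passed in edgeR (0.0%; 1766 genes, 13.6%, at an unadjusted p under 0.05), while DESeq2 called 88. Cyp2b10 was at 11.4 to 247 CPM at 6 mg/kg, and its difference from 1 mg/kg was 3.67 (SE 0.65, edgeR adjusted p = 0.121). Gbp11 was at 5.92 to 32.2 CPM and differed by 1.44 (SE 0.31, edgeR adjusted p = 0.148). Cyp1a2 differed by 0.53 (SE 0.20) and Dnajb9 by -0.57 (SE 0.21), with adjusted p of 0.268 and 0.269 in edgeR.

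The doses set against vehicle share the same 4 vehicle libraries, so their values are given side by side only. Cyp2b10 was 1.00, 2.34 and 6.01 on the log2 scale at 0.1, 1 and 6 mg/kg, Cyp1a2 0.56, 0.91 and 1.44, and Dnajb9 -0.55, -1.30 and -1.87. Trib1 was 1.08, 0.80 and 1.02 and Dbp 1.504, 1.45 and 1.68. Sult2a3 was -0.41, -2.84 and -1.74, Sult2a1 -0.02, -1.29 and -0.82, and Sult2a2 -0.01, -1.22 and -1.09. At 6 mg/kg animals 53 and 56 were at 447 and 429 CPM of Sult2a1, within the vehicle range, and the other 4 were at 154 to 219 CPM. In all, 2 genes (0.0154%) passed at 0.1 mg/kg, Trib1 and Usp2 (edgeR adjusted p = 0.00635 and 0.0387), and 363 (2.8%) at 6 mg/kg. Of the genes above, Trib1, Dnajb9, Cyp1a2, Cyp2b10, Gbp11, Mafg and Ces2a were among those 363, with adjusted p from 0.00066 to 0.00932 in edgeR, as were Usp2, Dbp, Arntl, Hspa1b and Cyp2c54, at 0.0134 to 0.0333, and the 4 low Sult2a genes were not, at 0.054 to 0.13.

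**Figure D4:**
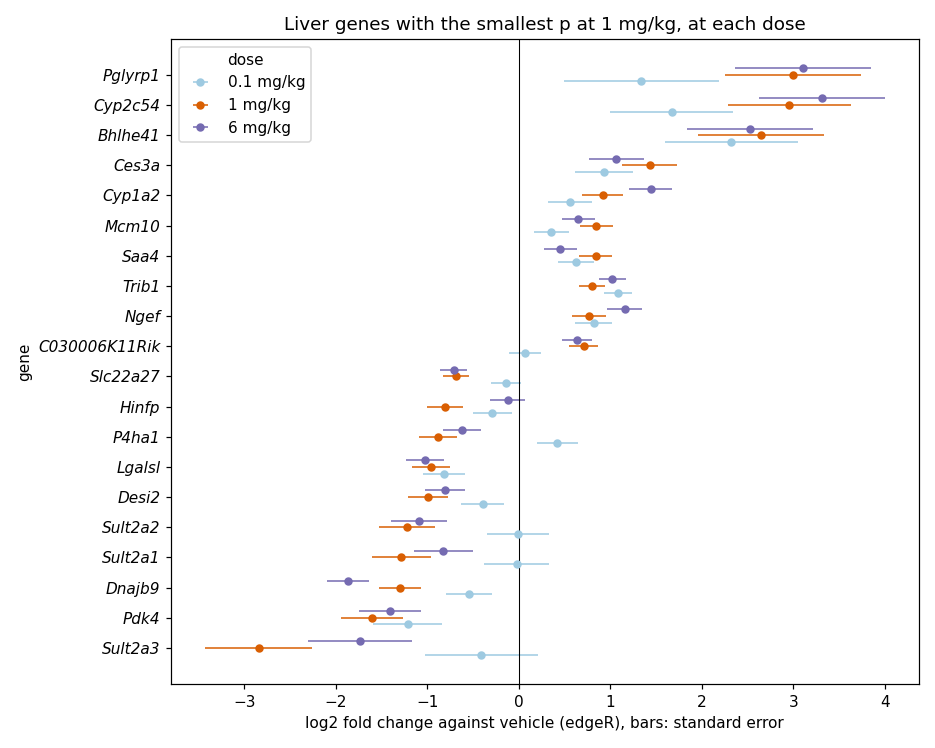
Log2 fold change against vehicle (edgeR, bars are SE) at 0.1, 1 and 6 mg/kg for the 20 liver genes with the smallest p and no overlap at 1 mg/kg; the 3 doses share the same vehicle libraries. Trib1 lies at 0.80 to 1.08 at every dose, Sult2a1 and Sult2a2 lie near 0 at 0.1 mg/kg, and P4ha1 is positive at 0.1 mg/kg and -0.88 at 1 mg/kg.

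In the brain regions, no gene passed at 1 mg/kg against vehicle in edgeR: of 14838 genes in the prefrontal cortex 1230 (8.29%), and of 15118 in the striatum 1113 (7.36%), had an unadjusted p under 0.05, and DESeq2 called 0 and 6. Trib1 differed by -0.20 (SE 0.20) in the prefrontal cortex and -0.11 (SE 0.24) in the striatum, and Dnajb9 by -0.01 (SE 0.08) and 0.15 (SE 0.12). Dbp was higher by 0.32 (SE 0.13) in the prefrontal cortex and differed by -0.05 (SE 0.16) in the striatum, and Arntl by -0.10 (SE 0.11) and 0.06 (SE 0.15). Whether these values differ from those of the liver was not tested. The Sult2a genes, Ces3a, Cyp1a2, Cyp2b10 and Gbp11 had too few counts there to be tested.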

How the data were processed

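TRIzol and RNeasy columns were used for RNA, per the labels' protocols, and libraries were made after poly(A) capture or ribosomal RNA removal, without a statement of which. The submitters' processing notes name FastQC, HISAT2 and the mouse build mm10; the counting tool, annotation and use of strand are not given in the sources used here, so overlapping and antisense genes cannot be told apart. The authors deposited whole-number read counts per Entrez gene, 1 table per tissue, whose listed genes each total at least 10 counts; 0 columns were left unmapped. Symbols and gene positions came from the RefSeq list of GRCm38.p6, which named 99.95% of liver identifiers.

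Genes were kept by filterByExpr and fitted with edgeR 4.0.16 (R 4.3.3): TMM scaling, a robust quasi-likelihood fit over all 4 liver dose groups, Benjamini-Hochberg adjustment, threshold 0.05. An SE is the log2 fold change divided by the root of F. CPM are TMM-scaled. DESeq2 1.42.0, median-ratio factors, other filters, the 2 groups alone, 1 surrogate variable (sva 3.50.0), library covariates and leave-one-out fits were alternatives. Library measures were tested with exact permutations (SciPy 1.17.1). GC content was known for 96.5% of tested genes, from GENCODE vM21. Simulated counts of 12769 genes with 200 changed gave 4.38% false calls. Replicates differed beyond sampling noise (smallest chi-square per degree of freedom 12.9). The labels number the animals and say no more of the replicates, so p-values measure the spread between these samples.

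The comparison, gene lists and tests were chosen with earlier results of these data known. The rule named, for want of passing genes, the 10 genes in each direction with the smallest p whose groups did not overlap, genes passing in at least 2 other fits, the 3 members of smallest p of each list, and fixed anchors. Sult2a5, Sult2a7, Sult2a8, Cyp2c50, Tef, Ciart, Nfil3, Per3, Ifit1, Psmb9, Hsph1, Sqle, Fdps, Orm2, Igfbp1, Trib3, Srebf2, Cyp7a1, Hspa5 and Phf8 were named, and the IR0 letters added to the motifs, after the values were seen. Some list members are counted but not reported here by name.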

Additional observations from a re-analysis of the deposited data

Results flagged for a closer look

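A library that stood far from the rest of its group was looked for in 204 groups of values, where chance flags about 1 in 20, or 10.2; 16 were found. At 1 mg/kg, animal 42 was high in Mcm10 (47.6 CPM), Hspa1b (10.9 CPM), Hspa1a (3.22 CPM) and G6pc (246 CPM). Animal 46 was high in Cyp2c54 (402 CPM) and Bhlhe41 (3.12 CPM), animal 41 in Slc22a27 (66.7 CPM) and Arntl (3.85 CPM), and animal 50 in Cd79a (3.60 CPM) and in the summed lymphocyte markers (22.97 CPM). Animal 48 was low in Cyp3a11 (908 CPM) and high in Trib3 (26.8 CPM), and animal 45 was high in the summed red-cell markers (2638 CPM). In vehicle, animal 7 was high in Bhlhe41 (0.845 CPM) and in the share of counts in brain-abundant genes (0.0995%), and animal 4 in Pdk4 (28.9 CPM).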

How the results depend on the processing

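No gene passed at 1 mg/kg against vehicle with median-ratio factors, without a filter, with a mean of at least 10 counts, or with the clock index, GC slope or brain share as a covariate. DESeq2 called 21, the 2 groups alone 1 (Sult2a3), and 1 surrogate variable 4 (Trib1, Dnajb9, Mcm10 and Cyp2b10); leaving out 1 library gave 0 to 3, namely Dnajb9, Slc22a27 and Phf8 without animal 41, Dnajb9 without 46 and Dbp without vehicle 8. Against 0.1 mg/kg the 2 calls became 22 in DESeq2, 5 with the surrogate variable, 1 without a filter, in the 2 groups alone, with the GC slope and with the brain share, and 0 to 7 without 1 library. Hspa1b lost its call with the surrogate variable and without a filter (edgeR adjusted p = 0.0624 and 0.0541). It also did in the 2 groups alone, with the GC slope and with the brain share (0.234, 0.297 and 0.0643). P4ha1 kept its call in all of those fits. For 6 against 1 mg/kg the 0 calls became 88 in DESeq2, 94 with the surrogate variable and 0 to 1 without 1 library (1 without animal 52 at 6 mg/kg). DESeq2 called 6 genes in the striatum. The main test put 70 list members under the unadjusted threshold; the number was 15 with the clock index and 41 with the GC slope as a covariate, 33 without vehicle animals 3 and 4, and 55 to 93 without 1 library, while over all genes 1095 became 182, 393 and 358 in the first 3, so the fall is not particular to the lists. The clock covariate uses Dbp and Arntl themselves and separates the groups.

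Of 1990 gene values over 21 alternatives (3 chosen after seeing the data), 18 changed sign. With the clock index as a covariate these were Arntl 0.30, Per1 -0.12, Igfbp1 0.14, Timd4 -0.0042, Gstt2 -0.024, Igf1 -0.038, Tef -0.018, Ciart -0.12, Per3 -0.24, Psmb9 -0.065 and Sult2a7 -1.20; with the GC slope, Per1 -0.20, Csf1r -0.0062 and Apoa1 -0.074. Sult2a7 was also -0.031 with the surrogate variable, -0.49 without vehicle animals 3 and 4, -0.092 without animal 46 and -0.11 without vehicle animal 3; without 1 library it ranged from -0.11 to 0.66. The cause was not tested. Leaving out 1 library, differences ranged from 0.229 to 0.344 for the GC slope, from -0.00840 (without animal 45) to 0.0307 percentage points for the brain share, from 57.1 to 92.2 CPM for the macrophage sum, from 3.66 (without animal 50) to 6.55 CPM for the lymphocyte sum and from 3.06 to 4.19 for the clock index. No paired analysis was possible because the vehicle and 1 mg/kg groups share no animal number.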
